A study of Homo sapiens with 32 samples.

Results

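The ISG15 conjugation system was described here through 6 genes, ISG15, UBA7, UBE2L6, HERC5, HERC6 and USP18, in THP-1 cells that lack ATP citrate lyase (ACLY) or carry a mutant of it. The members were the rows with these symbols, 6 of 60107 genes in the tables, and all 6 were among the 12406 genes tested. In untreated cells, all 6 were higher in ACLY knockout cells than in cells given back wild-type ACLY, by 2.47-fold (UBA7) to 6.93-fold (USP18). In untreated cells with the catalytically inactive ACLY, ISG15, HERC5 and UBA7 passed the test as higher than in WT. USP18 (5.01-fold) and HERC6 (3.30-fold) missed it, although their libraries did not overlap those of WT. UBE2L6 showed 1.26-fold with overlapping libraries. In cells with the phosphorylation-deficient ACLY no member passed the test against WT.

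ISG15 is a ubiquitin-like protein that type I and type III interferons induce and that is joined to lysines of newly made proteins. UBA7 is the enzyme that activates ISG15 (E1), UBE2L6 carries it (E2) and HERC5 is the main human ligase (E3). HERC6 is a close relative of HERC5 and does the ligase's work in mice. USP18 removes ISG15 from proteins and also blocks the type I interferon receptor at its IFNAR2 subunit. In monocytes and macrophages these genes belong to the interferon response, which LPS can start through interferon made by the cells themselves.

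THP-1 is a human monocytic line from a myeloid leukemia. RNA of 4 lines, untreated or given LPS at 100 ng/ml for 3 hours, was sequenced from the 3′ end in 32 libraries, 4 in each of 8 groups (the methods give 10 ng/ml for cell treatment in general). KO is the ACLY knockout, and WT, HA and SA are knockout cells transduced with a lentiviral vector (of the pCDH-EF series) carrying the coding sequence of wild-type, H760A (catalytically inactive) or S455A (phosphorylation-deficient) ACLY. The lines therefore share the knockout background, the labels name 1 line per genotype, and it is not stated whether the KO cells were transduced. Differences between lines other than ACLY and the genotype cannot be told apart, and the labels do not say whether the 4 libraries of a group came from separate cultures. The study's methods describe its data in general as coming from independent experiments, without tying the libraries to them, so the p-values measure the spread between these libraries, which may in part be technical.

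Libraries held 6504099 to 14750815 reads on genes (median 10247620), with 17 to 481 reads on HERC6, the member with the fewest, and 641 to 7612 on ISG15. Normalized counts are reads divided by a size factor computed over all 32 libraries. ACLY itself was at 89.7 ± 17.7 normalized counts in KO, 103 ± 11.5 in WT, 98.1 ± 29.3 in HA and 145 ± 28.2 in SA (SD, n = 4), so its 3′ reads did not separate KO from WT. Where the knockout lesion lies is not given in the sources used here, and 3′ reads outside it check nothing. Whether transcripts of the vectors were counted as ACLY was not tested either. The paper reports by Western blot that ACLY was put back in WT, HA and SA. It also reports reduced ACLY activity in KO and HA and intact activity in SA. Of 10 monocyte and myeloid markers all 10 had a median of at least 10 in every group. Of 9 markers of other cells, 5 to 7 had a median below 1 in each group, while PECAM1 (median 3690 over all libraries) and, at low levels, NCAM1 (3.71) and COL1A1 (3.77) were detected. The library SA LPS replicate 1 stood apart, with a root mean square deviation from its group mean of 1.42 on the log2 scale over all genes tested (median over libraries 0.452) and the fewest genes with reads, 13460 (median 17400). KO replicate 3 came next. Results that rest on SA LPS replicate 1 are given with and without it.

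Promoters of members are shown first, and the letters show what an interferon-response site looks like. Whether such sites bear on the differences between lines was not tested. RefSeq windows of GRCh38.p14 from 250 bases before to 50 after the gene start were held for 4 members, and UBA7 and USP18 had none in the table. The windows were searched for an ISRE-type repeat, GAAA, any 2 bases and GAAA again, or TTTC, any 2 bases and TTTC on the other strand, which 3.57% of 35116 promoter windows hold, and matched letters are in capitals. Overlapping matches form 1 run of capitals.
ISG15 (chr1:1013247-1013546, + strand): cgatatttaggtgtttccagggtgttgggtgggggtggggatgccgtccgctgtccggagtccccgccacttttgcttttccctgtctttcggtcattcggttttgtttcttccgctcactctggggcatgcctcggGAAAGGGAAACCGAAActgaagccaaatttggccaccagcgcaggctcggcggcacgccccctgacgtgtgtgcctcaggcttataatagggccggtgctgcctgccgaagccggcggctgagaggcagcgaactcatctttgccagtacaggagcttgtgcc
HERC5 (chr4:88456869-88457168, + strand): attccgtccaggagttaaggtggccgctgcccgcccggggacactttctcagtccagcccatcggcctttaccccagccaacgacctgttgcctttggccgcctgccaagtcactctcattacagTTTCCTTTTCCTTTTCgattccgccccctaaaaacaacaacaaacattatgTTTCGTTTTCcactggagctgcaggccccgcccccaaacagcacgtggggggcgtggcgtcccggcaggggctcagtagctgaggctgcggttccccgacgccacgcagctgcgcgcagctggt
HERC6 (chr4:88378602-88378901, + strand): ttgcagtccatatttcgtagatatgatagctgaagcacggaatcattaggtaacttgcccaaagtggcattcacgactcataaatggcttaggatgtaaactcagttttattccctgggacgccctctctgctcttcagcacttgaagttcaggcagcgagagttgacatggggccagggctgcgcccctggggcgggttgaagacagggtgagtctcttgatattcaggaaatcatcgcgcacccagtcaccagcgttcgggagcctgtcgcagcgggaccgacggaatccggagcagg
The ISG15 window held 2 overlapping matches that begin 113 and 107 bases before the RefSeq gene start. The HERC5 window held 3, at 125, 119 and 74 bases before its own. For ISG15, HERC6 and UBE2L6 the RefSeq start lies inside the GENCODE span given below and is not an end of that span. The HERC6 window, shown because HERC6 lies next to HERC5 on chromosome 4, and both UBE2L6 windows held none, which says only that these letters are not in these windows. The GAS-type letters TTCNNNGAA were in 7.66% of all windows and in none of the members'.

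By GENCODE release 44 on GRCh38, the members lie on 5 chromosomes: ISG15 at 1001138-1014540 on chromosome 1, UBA7 at 49805209-49813953 on chromosome 3, HERC6 at 88378739-88443097 and HERC5 at 88457119-88506163 on chromosome 4, UBE2L6 at 57551656-57568284 on chromosome 11 and USP18 at 18150118-18177397 on chromosome 22. The annotated ISG15 span overlaps 2 genes on the opposite strand, both at 0 in every library, and UBA7 spans the microRNA gene MIR5193 on its own strand. USP41, a near-identical copy of USP18, had 4 reads in all libraries together, although reads shared by the copies could be split or lost in counting.

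ISG15, the modifier, was lowest in WT and highest in KO. Untreated WT libraries had 930.5, 632, 1218 and 761 normalized counts and SA libraries 1432, 1111, 932 and 1315. HA libraries had 4004, 2955, 2173 and 2018 and KO libraries 6635, 4723, 6412 and 4584. Every HA library was above every WT and SA library, and every KO library above every HA library. After LPS, WT libraries had 1914, 1538, 2070 and 1676, HA libraries 6484, 4070, 4308 and 3530, and KO libraries 7113, 6928, 8062 and 6045. All KO and HA libraries again lay above WT, with KO and HA now overlapping through HA LPS replicate 1. SA libraries after LPS had 6931, 2334, 2131 and 2389, so that 3 sat just above WT and replicate 1 sat among KO. Against WT, ISG15 was 2.68 higher in KO on the log2 scale (SE 0.28, 6.41-fold, limma adjusted p = 1.03e-07) and 1.64 higher in HA (SE 0.28, 3.12-fold, limma adjusted p = 3.75e-04) without LPS. The differences were 1.97 (limma adjusted p = 1.70e-05) and 1.32 (limma adjusted p = 0.00401) with LPS. The last of these missed 0.01 without replicate 1, 2 or 4 of WT LPS or replicate 1 or 3 of HA LPS (at most 0.031). In bulk RNA, a higher share of cells with the transcript and more transcript per cell cannot be told apart.

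**Figure D1:**
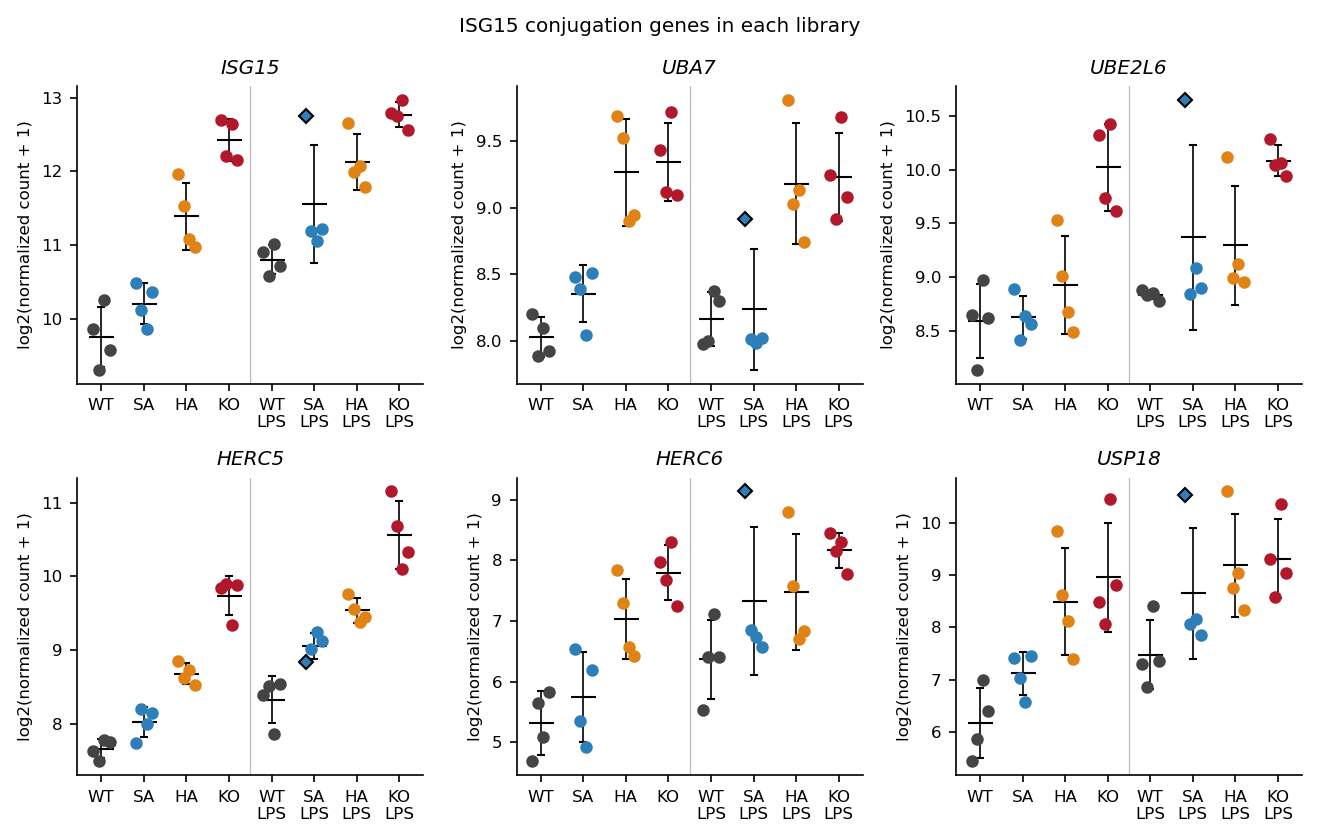
Each panel plots 1 gene in the 32 libraries, with log2(normalized count + 1) on the y axis and the 4 lines without and with LPS on the x axis. Points are libraries in the order of their replicate number, the diamond is SA LPS replicate 1, and bars are the mean ± SD of the 4 log2 values. All 6 genes had their lowest untreated mean in WT and their highest in KO, with HA close to KO for UBA7 and close to WT for UBE2L6.

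UBA7, the activating enzyme, split the lines into 2 levels. Its untreated libraries ran from 237 to 295 normalized counts in WT (median 258) and 263 to 364 in SA (median 345), against 476 to 822 in HA (median 613) and 546 to 840 in KO (median 622). HA and KO libraries lay above all WT and SA libraries, while HA and KO overlapped each other. The log2 difference from WT was 1.31 (SE 0.23, limma adjusted p = 3.53e-04) in KO and 1.23 (SE 0.23, limma adjusted p = 0.00101) in HA. KO and HA differed by 0.08 (95% interval -0.39 to 0.55). After LPS, the differences from WT were 1.06 in KO (limma adjusted p = 0.00286) and 1.01 in HA (limma adjusted p = 0.00767). The KO value missed the limit of 0.01 without replicate 1 or 2 of WT LPS or replicate 1 or 3 of KO LPS (at most 0.0176), and the HA value without any of 7 of the 8 libraries compared, HA LPS replicate 4 being the exception (at most 0.059).

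UBE2L6, the carrier enzyme, was high in KO and near WT in HA. Untreated WT libraries had 399, 280.2, 502 and 392 normalized counts, HA libraries 740.3, 513, 408 and 359, and KO libraries 1277, 852, 1371 and 783. KO lay above every other untreated library, and of the 4 HA libraries 2 lay above WT and 2 within its range. KO was 1.43 higher than WT on the log2 scale (SE 0.30, limma adjusted p = 0.00271) and HA 0.33 (SE 0.30, limma adjusted p = 0.497, 95% interval -0.29 to 0.95). After LPS, WT libraries had 469, 456, 461 and 439, HA libraries 1113, 508, 557 and 495.5, and KO libraries 1247, 1054, 1069 and 983. HA libraries were all above WT by a narrow margin and replicate 1 was far above the others. The differences from WT after LPS were 1.25 in KO (limma adjusted p = 0.00894) and 0.46 in HA (limma adjusted p = 0.474). The KO value after LPS passed 0.01 narrowly and missed it when any of 21 of the 32 libraries was left out (limma adjusted p 3.91e-04 to 0.0377). Without LPS it missed it without KO replicate 1, WT replicate 2 or KO replicate 3 (at most 0.0185).

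HERC5, the ligase, had the narrowest spread and set all 3 of KO, HA and WT apart. Untreated libraries had 197, 178, 218 and 215 normalized counts in WT, 459.9, 391, 423 and 366 in HA, and 917, 947, 645.5 and 939.5 in KO. The 3 groups did not overlap, although KO replicate 3 fell below the rest of its group. Relative to WT, HERC5 was 2.07 higher in KO (SE 0.18, 4.21-fold, limma adjusted p = 5.65e-09) and 1.02 higher in HA (SE 0.18, 2.02-fold, limma adjusted p = 7.80e-04) on the log2 scale. After LPS, libraries had 335, 365, 231 and 370.5 in WT, 868, 752, 665 and 695.5 in HA, and 2282, 1636, 1092 and 1291 in KO, again without overlap. The differences were then 2.24 in KO (limma adjusted p = 1.46e-09) and 1.21 in HA (limma adjusted p = 8.58e-05).

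HERC6, the relative of HERC5, had few reads and a wide spread. Untreated libraries ran from 24.7 to 55.9 normalized counts in WT (median 41.1), 29.2 to 92.0 in SA (median 55.8), 85.0 to 229 in HA (median 125) and 150.2 to 315 in KO (median 227). KO and HA lay above WT without overlap. The log2 difference from WT was 2.49 in KO (SE 0.50, limma adjusted p = 0.00145) and 1.72 in HA (SE 0.50, limma adjusted p = 0.0346), and only the first passed the limit. Without SA LPS replicate 1, which enters the shared estimate of the spread, the HA value was at 0.00685. After LPS, it was 1.80 in KO (limma adjusted p = 0.0236, or 0.00398 without that library) and 1.11 in HA (limma adjusted p = 0.241).

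USP18, which removes ISG15, had the largest differences from WT without LPS and the largest spread. Untreated libraries had 42.1, 56.9, 126 and 83.4 normalized counts in WT, 918, 391, 276 and 168 in HA, and 358, 268, 1412 and 451.5 in KO. Every HA and KO library was above every WT library, but HA replicate 1 and KO replicate 3 were each far above the others of their group. The log2 difference from WT was 2.79 in KO (SE 0.59, 6.93-fold, limma adjusted p = 0.00269) and 2.33 in HA (SE 0.59, 5.01-fold, limma adjusted p = 0.0154). The KO value missed 0.01 without replicate 1 or 2 of WT or replicate 3 of KO (at most 0.0208), and the HA value passed it without SA LPS replicate 1 (0.00399). After LPS, libraries had 156, 114, 339 and 163 in WT, 1570, 431, 530.3 and 322.5 in HA, and 632, 382, 1316 and 525 in KO. KO stayed above WT in all 4 libraries, HA overlapped WT, and the differences of 1.84 in KO (limma adjusted p = 0.0609) and 1.71 in HA (limma adjusted p = 0.11) missed the limit.

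Counted over the members, 6 of 6 were called higher in KO than in WT without LPS at a limma adjusted p below 0.01, where 1.80% of the 12406 genes tested were called higher (2.90% in either direction). The median difference of the members was 2.28 on the log2 scale against -0.03 over all genes tested. In HA, 3 of 6 were called, where 1.42% of all genes were called higher (2.52% in either direction), with a median of 1.44 against -0.02. After LPS, 4 of 6 were called in KO (background 2.14% higher, 3.47% in either direction) and 3 of 6 in HA (1.16% and 2.02%). The libraries of KO and WT did not overlap for any member in either condition, where 5.90% of all genes were higher without overlap before LPS and 6.73% after it. For HA against WT this held for 5 members without LPS (9.00% of all genes) and 4 with it (7.09%). The KO and HA comparisons share the WT libraries, so their counts are not independent of each other.

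Same-numbered WT and KO libraries deviated together from their group means. In a fit of only the groups compared with the replicate number as a block, all 6 members were called in KO after LPS, with HERC6 at a limma adjusted p of 1.80e-04 and USP18 at 4.11e-07. With the block in the fit of all 8 groups, these were 0.0158 and 0.0324. All 6 were called without LPS in both. The number of all genes called in KO against WT depends on the fit as well. With LPS it was 430 without a block, and 300 to 1333 over the alternative fits that kept all libraries. Without LPS it was 360, and 179 to 723 over these fits.

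The summed level of the 10 monocyte markers was 7415 to 9068 normalized counts in untreated WT, 15340 to 22580 in HA and 17090 to 30670 in KO, and most of it was LYZ (lysozyme), at a mean of 4919 in WT, 15170 in HA and 18820 in KO. Without LYZ the sums were 3024 to 4524 in WT, 3199 to 4562 in HA and 3345 to 5977 in KO and overlapped. The other markers did not move one way. CD14, an LPS co-receptor, had means of 84.4 in WT, 74.0 in HA and 265 in KO, and CSF1R, the receptor for macrophage colony-stimulating factor, 422, 951 and 1092. ITGAM had means of 116, 55.4 and 86.9, CD33 of 382, 302 and 280, and CD4 of 639, 530 and 477 in the same order. By limma, LYZ was called higher in both lines and CD14 in KO, and the other 8 were not called in either. The shares of all genes called higher were 1.80% in KO and 1.42% in HA (2.90% and 2.52% in either direction). The 9 markers of other cells summed to 2494 to 2995 in WT, 4268 to 6087 in HA and 3976 to 6173 in KO, nearly all of it PECAM1, an adhesion protein that monocytes also carry (means 2601, 5025 and 4851). Without PECAM1 the sums were 20.4 to 36.4 in WT, 0.81 to 11.3 in HA and 0.933 to 6.50 in KO. NCAM1 had means of 17.4 in WT, 19.2 in SA, 1.20 in HA and 1.93 in KO, and COL1A1 6.28 in WT, 3.48 in HA and 1.46 in KO. CD3E was at 0 in every library, and the highest values of EPCAM, HBB and CD3D were 1.91, 1.78 and 0.834. Their part in the differences was not tested.

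**Figure D2:**
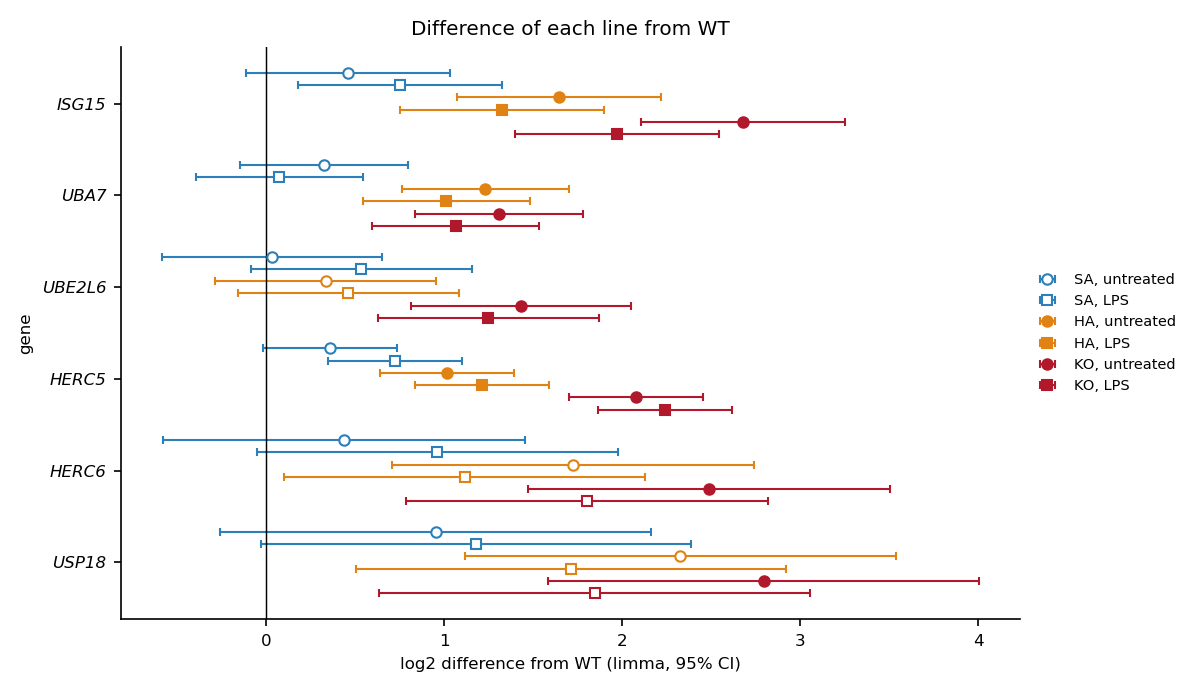
For each gene (y axis), the log2 difference of SA, HA and KO from WT (x axis) is drawn with its 95% interval from limma, as circles without LPS and squares with LPS. Filled symbols have an adjusted p below 0.01. The KO intervals lie above 0 for all 6 genes, the HA intervals include 0 for UBE2L6, and no SA symbol is filled.

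In SA against WT without LPS, no member passed the test. The log2 differences ran from 0.03 (UBE2L6, 95% interval -0.59 to 0.65) to 0.95 (USP18, 95% interval -0.26 to 2.16). All 6 were positive, 0 of 6 were called, and 0% of all genes were called by limma in this comparison (445 genes and 0 members had an unadjusted p below 0.05). No member separated SA from WT without overlap, where 2.37% of all genes were higher without overlap. The upper ends of the 95% intervals of UBA7, HERC6 and USP18 were 0.79, 1.45 and 2.16, so differences up to these sizes are not excluded.

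After LPS, SA libraries lay above WT without overlap for ISG15 and HERC5 (background 1.27% of all genes), and 0 of 6 members and 0% of all genes were called by limma (646 genes and 2 members had an unadjusted p below 0.05). The ISG15 difference was 0.75 with all libraries and 0.35 (95% interval -0.11 to 0.82) without SA LPS replicate 1. HERC5 was less affected, at 0.73 with and 0.80 (95% interval 0.40 to 1.20) without that library, with limma adjusted p of 0.825 and 0.468. For USP18 the difference fell from 1.18 to 0.55, for HERC6 from 0.96 to 0.35, for UBE2L6 from 0.53 to 0.11, and for UBA7 it turned from 0.07 to -0.15.

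Catalytically inactive ACLY and absent ACLY were compared directly. Without LPS, HERC5 was 1.06 log2 units higher in KO than in HA (SE 0.18, limma adjusted p = 0.00292), the only member called of 6, where 0.202% of all genes were called higher (0.226% in either direction). It missed 0.01 without any of replicates 1, 2 and 4 of KO or 2, 3 and 4 of HA (at most 0.0225), and on the deposited scale. ISG15 (1.04, limma adjusted p = 0.127) and UBE2L6 (1.10, limma adjusted p = 0.138) also had every KO library above every HA library, where 2.73% of all genes were. After LPS, 0 of 6 members were called by limma (0.00806% of all genes; 1307 genes and 3 members had an unadjusted p below 0.05), and the HERC5 difference was 1.03 (limma adjusted p = 0.0134), again without overlap (2.66% of all genes). Without SA LPS replicate 1, ISG15 without LPS (limma adjusted p = 0.0095) and HERC5 with LPS (limma adjusted p = 0.00561) were called as well. UBA7 differed by 0.05 (95% interval -0.42 to 0.52) and USP18 by 0.13 (95% interval -1.08 to 1.34), values whose direction turned on the scale deposited by the authors. On that scale, on which each line was normalized alone, UBA7 was at -0.16 without and -0.20 with LPS and USP18 at -0.12 with LPS.

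Between the mutants, 0 of 6 members were called in HA against SA by limma. In untreated cells 0.725% of all genes were called higher in HA (1.50% in either direction), and 2029 genes and 5 members had an unadjusted p below 0.05. With LPS these were 1.06% (2.02% in either direction), 2430 genes and 2 members. The differences of ISG15 and UBA7 were 1.18 (limma adjusted p = 0.0132) and 0.91 (limma adjusted p = 0.0223) without LPS and 0.57 and 0.94 with it. When SA LPS replicate 1 was left out, ISG15 and UBA7 were called in both conditions, at 1.18 (limma adjusted p = 6.11e-04) and 0.91 (limma adjusted p = 0.00635) without LPS and at 0.97 (limma adjusted p = 0.00933) and 1.17 (limma adjusted p = 0.00142) with it. Without overlap and higher in HA were ISG15, UBA7 and HERC5 without LPS (6.11% of all genes) and HERC5 with LPS (5.51%). The untreated values change in the test although that library is not in these groups, since all groups share 1 estimate of the spread.

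The order of the mean log2 levels in untreated cells was WT, SA, HA, KO for all 6 members. Of the neighbours in this order, limma separated only HA and KO, for HERC5. Libraries also did not overlap between SA and HA for ISG15, UBA7 and HERC5, and between HA and KO for ISG15 and UBE2L6. After LPS the order was the same but for UBE2L6, where SA came above HA with all libraries and below it without SA LPS replicate 1. Without that library SA also came below WT for UBA7.

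The response to LPS at 3 hours passed the test for 2 members in SA and for none in the other lines. In WT, the log2 differences were 1.06 for ISG15 (95% interval 0.48 to 1.63), 0.66 for HERC5, 1.05 for HERC6, 1.31 for USP18, 0.24 for UBE2L6 and 0.13 for UBA7, with 0 of 6 called by limma, where 0.250% of all genes were called (200 genes and 4 members had an unadjusted p below 0.05). ISG15 and HERC5 libraries did not overlap between WT with and without LPS (1.77% of all genes were higher without overlap). With the replicate number as a block and only these 2 groups in the fit, ISG15 (limma adjusted p = 7.84e-09), USP18 (4.08e-05) and HERC5 (0.00642) were called. With the block in the fit of all groups, ISG15 was at 0.022 and none was called. Without SA LPS replicate 1 and with no block, ISG15 was called (limma adjusted p = 0.00852). IFIT1 and IFIT3, antiviral proteins that interferon and LPS induce, rose in the same WT cells by 2.83 and 3.25 on the log2 scale. They had the largest differences of 4 genes called among the 10 reported ISG15 targets listed below. OAS1 and OAS2, also named below, rose less. Their means were 205 and 576 normalized counts without LPS and 352 and 1016 with it.

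In KO, the LPS differences were 0.83 for HERC5 (limma adjusted p = 0.016, without overlap) and between -0.11 (UBA7) and 0.37 (HERC6) for the others. None of 6 was called by limma (0.572% of all genes; 673 genes and 1 member had an unadjusted p below 0.05). In HA, HERC5 differed by 0.86 (limma adjusted p = 0.0158, without overlap) and ISG15 by 0.74, with 0 of 6 called by limma (0.403% of all genes; 592 genes and 2 members at an unadjusted p below 0.05). No overlap in the higher direction was found for 1.95% of all genes in KO and 1.99% in HA. In SA, HERC5 rose by 1.03 (limma adjusted p = 0.00161) and ISG15 by 1.35 (limma adjusted p = 0.00932), 2 of 6 called where 0.468% of all genes were called higher (0.492% in either direction). Libraries of ISG15, HERC5, HERC6 and USP18 did not overlap there (2.11% of all genes were higher without overlap). Without SA LPS replicate 1, HERC5 was at 1.11 (limma adjusted p = 0.00143) and ISG15 at 0.95 (limma adjusted p = 0.0427). The ISG15 value missed 0.01 without any of 26 of the 32 libraries, and that of HERC5 without SA replicate 1 or SA LPS replicate 3 (at most 0.0141). UBA7 differed by 0.13 in WT, -0.11 in KO, -0.08 in HA and -0.12 in SA, none past the test.

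**Figure D3:**
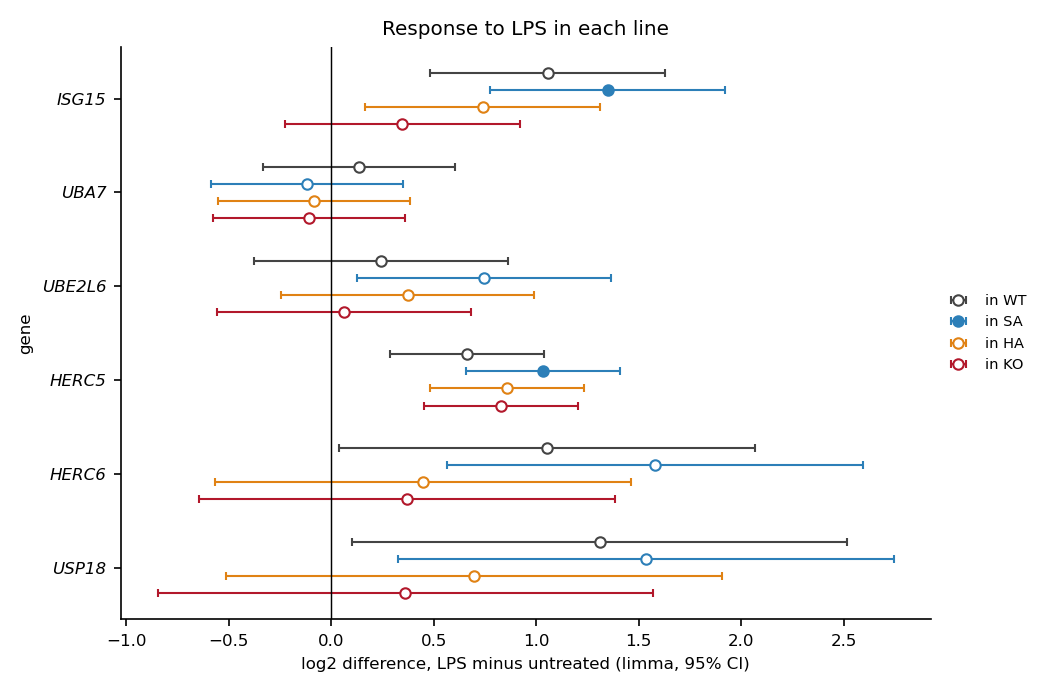
The log2 difference between LPS-treated and untreated libraries (x axis) is drawn for each gene (y axis) and line with its 95% interval from limma. Filled symbols, ISG15 and HERC5 in SA, have an adjusted p below 0.01. HERC5 was between 0.66 and 1.03 in all 4 lines, UBA7 sat near 0, and ISG15, HERC6 and USP18 had smaller values in KO and HA than in WT and SA.

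The difference of the LPS response between each line and WT was tested as an interaction. For ISG15 it was -0.71 in KO (95% interval -1.52 to 0.10), -0.32 in HA and 0.29 in SA. For HERC5 it was 0.17 in KO (95% interval -0.37 to 0.70). None of 6 members was called by limma in any line, where 0.00806% of all genes were called in KO and 0% in HA and SA, and at an unadjusted p below 0.05 there were 175 genes in KO, 142 in HA and 457 in SA and 0 members in each. With the block and only these groups, the ISG15 value in KO had a limma adjusted p of 0.0713.

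Within groups, the members other than HERC5 varied together from library to library. Over the 32 libraries, the deviations of ISG15, UBA7, UBE2L6, HERC6 and USP18 from their group means had the same sign in 23 to 29 libraries for each pair of them. For HERC5 paired with each of the others this was 13 to 16 libraries. In SA LPS replicate 1, USP18 was 5.69 times, HERC6 5.39 times, UBE2L6 3.27 times, ISG15 3.03 times and UBA7 1.88 times the mean of the other 3 libraries, and HERC5 was 0.814 times it. In KO replicate 3, USP18 deviated by 1.50 on the log2 scale and HERC5 by -0.40. The genes share each library and its size factor, so these deviations are a description of the libraries.

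**Figure D4:**
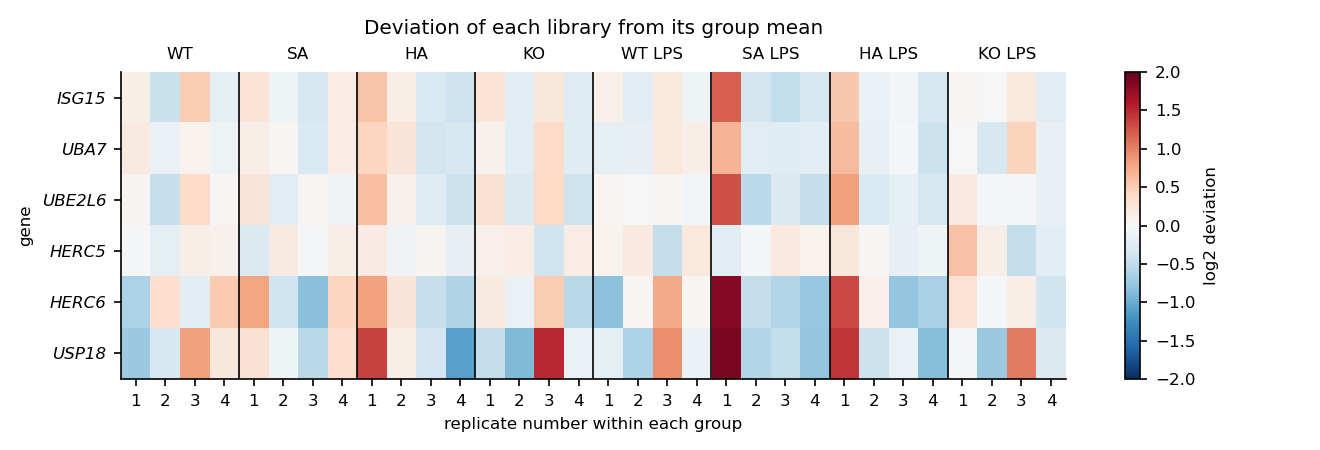
Colours give the deviation of each library (x axis, replicate number within group) from the mean log2 level of its group, for each gene (y axis). SA LPS replicate 1 is high for 5 genes, up to 1.88 for USP18, and at -0.22 for HERC5, whose row does not follow the others.

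The level pattern over the 8 groups was compared with that of every gene tested outside the 6 members. The measure was the root mean square difference of the centred mean log2 levels. Some members were closer to each other than to any gene outside, ISG15 and HERC6 at 0.136 and USP18 to HERC6 at 0.241. The genes named below are the closest outside the members. The genes closest to ISG15 were OAS1 (0.206) and OAS2 (0.207), sensors of double-stranded RNA, where the median over all genes was 1.04. MX2 (0.141) and SAMD9L (0.157) were closest to HERC5 (median 0.946), and MX1 (0.247) and NRP2 (0.306) to USP18 (median 1.10). PARP9 (0.185) and IFI16 (0.205) were closest to HERC6 (median 0.982), and EIF2AK2, the kinase PKR (0.099), and LY6E (0.128) to UBE2L6 (median 0.607). For UBA7 these were IFITM2, which blocks virus entry (0.045), and GAB2 (0.076), with a median of 0.588. The mean of the 6 members was closest to IFI16, a DNA sensor (0.052), SP110 (0.085), SAMD9L (0.096), PARP9 (0.105) and OAS2 (0.139), with a median of 0.844.

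Of 5 transcription factors that carry the interferon signal, 3 were called higher in untreated KO than in WT by limma: STAT2 (1.64 on the log2 scale), IRF1 (0.84) and IRF7 (1.93). IRF3 (0.12) and IRF9 (1.21, at 10.3 normalized counts in WT) were not. Of all genes tested, 1.80% were called higher in untreated KO. In untreated HA, STAT2 (1.45) was called, where 1.42% of all genes were called higher. After LPS, IRF1 was called in KO (1.75) and in HA (1.16), where 2.14% and 1.16% of all genes were called higher. None of the 5 was called in SA in either condition, where 0% of all genes were called.

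Of 10 genes whose proteins are reported to be joined to ISG15, 6 were called higher in KO in each condition. The background was 1.80% of all genes without LPS and 2.14% with it. Without LPS the 6 were IFIT1 (3.45), IFIT3 (3.01), MX1 (2.83), DDX58, the RNA sensor RIG-I (2.09), IFIH1, the RNA sensor MDA5 (2.05), and EIF2AK2 (1.42). The same genes were called with LPS. All 6 are themselves interferon-induced, and of the others, TSG101, CHMP5, BECN1 and PCNA, none was called. In HA, 4 were called without LPS (MX1 2.21, IFIT1 1.84, IFIH1 1.55, IFIT3 1.21) and 2 with it (MX1 1.46, IFIH1 1.44). The background in HA was 1.42% of all genes without LPS and 1.16% with it.

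Other genes of the pathway were examined as well. Among them were the ligases TRIM25 and ARIH1, 6 further proteases reported to act on ISG15 and the receptor chain genes IFNAR1 and IFNAR2. Of 15 such genes, only ITGAL was called in KO or HA against WT by limma in any condition. Of all genes tested, 2.90% were called in KO and 2.52% in HA without LPS, and 3.47% and 2.02% with it. At these shares, few calls would be found among any 15 genes. ITGAL, the alpha subunit of the integrin LFA-1, which is a receptor for free ISG15, was 1.12 higher in KO (limma adjusted p = 1.52e-05) and 1.15 higher in HA (limma adjusted p = 2.04e-05) without LPS. Its mean was 528 normalized counts in WT, 628 in SA, 1169 in HA and 1148 in KO. TRIM25 was at 1453 in WT and 1940 in KO (limma adjusted p = 0.192). SKP2, part of the ligase that marks USP18 for degradation and named after its values were seen, had a mean of 979 normalized counts in untreated WT. Its means were 332 in KO (limma adjusted p = 0.334) and 182 in HA (limma adjusted p = 0.0545), and the libraries of both overlapped WT. The median difference of the 15 genes in KO was 0.06.

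Enzymes of the same families that serve other modifiers formed the comparison list, 22 genes such as UBA1, UBE2L3 and HERC3. Of the 21 tested, 0 were called in any comparison by limma, where 0% to 3.47% of all genes were called. At these shares, few or none would be called among any 21 genes. Their median differences were -0.11 in KO and 0.17 in HA without LPS. UBE2L3, the closest relative of UBE2L6, was at 806 normalized counts in WT and 615 in KO, and HERC3 at 25.0 and 28.5. The lists were chosen with earlier results of these data known, and their counts are a description.

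**Figure D5:**
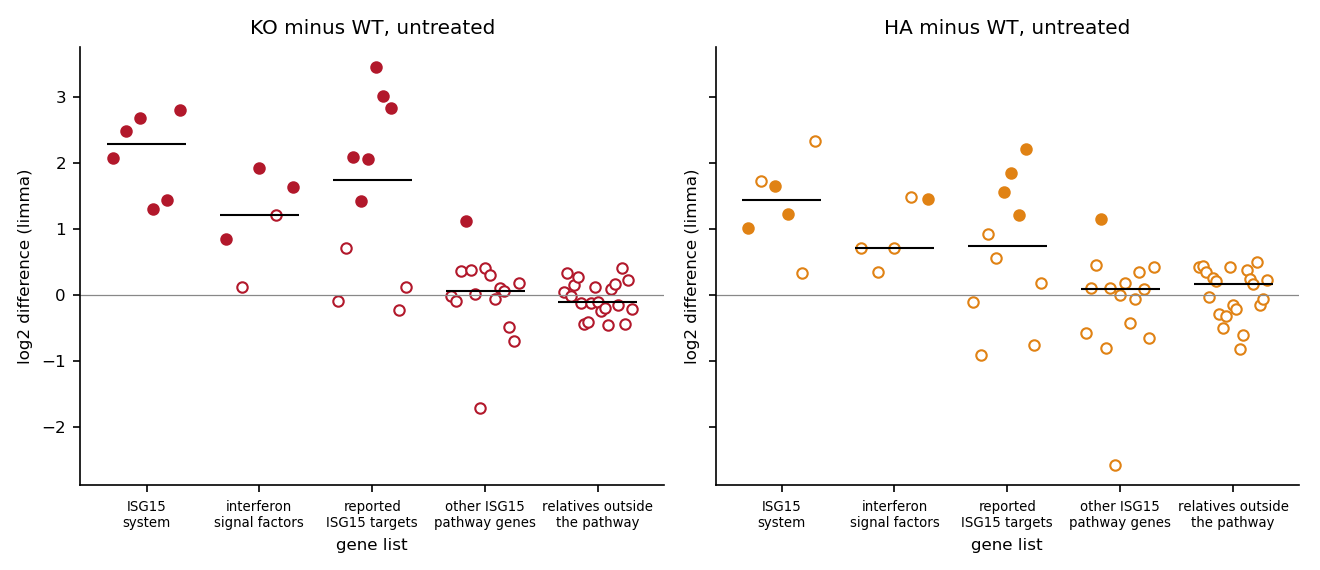
Points are the log2 differences (y axis) of KO (left) and HA (right) from WT without LPS for each gene of 5 lists (x axis), filled where the limma adjusted p was below 0.01, and lines are list medians. In KO the ISG15 system had a median of 2.28, the interferon signal factors 1.21, the reported targets 1.74, the other pathway genes 0.06 and the relatives -0.11.

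Transcripts of interferons themselves were few. IFNL1, a type III interferon, had 4 to 24 reads in the 4 untreated KO libraries and none in the 4 WT libraries. After LPS it had 31 to 114 reads in KO, 3 to 47 in HA, 0 to 9 in SA and 0 to 6 in WT. Its means of 80.9 normalized counts in KO and 2.62 in WT after LPS differed with a limma adjusted p of 6.41e-05, but the gene passed the minimum level only through KO and had to differ. IFNB1 had 129 reads in 8 libraries together, with 0 to 70 in KO after LPS and at most 3 in any library of HA, SA or WT. IFNG and the 4 IFNA genes examined had 0 reads in all 32 libraries, which allows up to 3 reads in all for counting error alone, and the cells were sampled at 1 time after LPS.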

How the data were processed

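RNA of THP-1 cells, 8 groups of 4 libraries grouped by the sample labels, was read with QuantSeq 3′ mRNA-seq. According to the methods, the authors used Bbduk (trimming), STAR with GRCh38 (mapping), HTSeq-count and DESeq2, their versions and annotation release not being given in the sources used here. The authors deposited normalized counts (unit: other, since decimals are written with commas), with reads divided by size factors computed within each line.

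Dividing by the value of 1 read gave whole reads (100.000% of values within 0.05), which were put on joint median-of-ratios factors over all 32 libraries. This assumes that most genes did not change. Relative to WT, the deposited scale shifts all genes by -0.10 (KO), 0.15 (HA) and 0.27 (SA) on the log2 scale. The test was limma 3.58.1 (R 4.3.3), applied to log2(normalized count + 1) of genes whose deposited mean was 10 or more. This scale understates changes of low genes. It used 1 fit over 8 groups and Benjamini-Hochberg adjustment over 12406 genes (limit 0.01). The script was tested on simulated data. No libraries of a group were copies (chi-square per gene 4.74 to 291). Molecular identifiers were not counted, and 92 spike-in rows (1 read) were left out.

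The members and lists were chosen with earlier results of these data known, and some genes of the lists are not reported here. Named genes are the members and called genes of the lists with examples. Also named are the 2 genes outside the members that were closest to each member (5 for their mean). Library deviations correlated between same-numbered libraries of all 6 pairs of WT and KO groups (0.124 to 0.723), so blocked values are given for these. Of 22 pairs with HA or SA, 0 did so throughout.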

Additional observations from a re-analysis of the deposited data

Results flagged for a closer look

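In 48 groups of 4 libraries (6 members in 8 groups), 7 held a library far from the other 3, by a gap over range above Dixon's 95% critical value, which chance passes in about 1 of 20 groups. SA LPS replicate 1 was the high library for 5 members: ISG15 at 6931, UBA7 at 482.6, UBE2L6 at 1611, HERC6 at 564.8 and USP18 at 1486 normalized counts. The remaining libraries of that group ran from 2131 to 2389, 253 to 260.1, 457 to 543, 93.7 to 115 and 231.5 to 285 for these genes. UBE2L6 was high in HA LPS replicate 1 at 1113, against 495.5 to 557 in the other 3 libraries. HERC5 was low in KO replicate 3 at 645.5, against 917 to 947.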

How the results depend on the processing

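All 19 called differences of members kept their direction under every alternative run: the deposited and TMM scales, pseudocounts of 0.5 and 5, no filter or a minimum of 50, only the groups compared, a replicate block, limma-voom, and each library left out. Of the 19, 14 missed the limit under at least 1 alternative, and the cause was not tested. The planned count tests with edgeR and DESeq2 were not run, and limma-voom on the recovered reads and the fit without both SA LPS replicate 1 and KO replicate 3 were chosen after seeing the data. Depth limits HERC6 and USP18 most, with as few as 17 and 29 reads.

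The number of all genes called depended on the fit as well. Setting aside fits with libraries left out, it ran from 8 to 503 in HA against WT without LPS. With LPS it ran from 7 to 352. For LPS in SA it ran from 3 to 71, for LPS in WT from 14 to 126. For KO against HA without LPS it ran from 0 to 48. A member count of 0 can therefore go with few calls among all genes. Members called, out of 6, moved as follows. With the replicate block (the pairing by number) and only the groups compared, 0 were called in HA against WT without and with LPS, 3 for LPS in WT, 2 for LPS in HA, 0 for LPS in SA, 0 for KO against HA and 2 for HA against SA without LPS. With the block in the fit of all groups, 1 was called for KO against HA with LPS and 1 for HA against SA in each condition. The block moved no other count by over 1.5 times. With only the groups compared, 0 were called for LPS in SA and 0 for KO against HA without LPS, which was also 0 on the deposited scale. For LPS in SA, 1 was called on the TMM scale and 1 without the filter. By limma-voom, 1 was called for LPS in KO and 1 for KO against HA with LPS. In KO against WT without LPS, UBE2L6 and USP18 missed the limit with only the groups compared, and HERC6 and USP18 by limma-voom. The count was 4 at the lowest. In KO against WT with LPS, UBE2L6 missed it on the deposited scale and without the filter, and the count was 3 at the lowest. In HA against WT with LPS, UBA7 missed it without the filter, with only the groups compared and by limma-voom.

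With libraries left out, 4 to 6 were called in KO against WT without LPS, 3 to 5 in HA against WT without LPS and 1 to 3 with it, 2 to 5 in KO against WT with LPS (6 without both SA LPS replicate 1 and KO replicate 3), 0 to 1 for LPS in WT, in KO and in HA, 0 to 2 for LPS in SA, 0 to 2 for KO against HA without LPS and 0 to 1 with it, and 0 to 2 for HA against SA in each condition.

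Reversals were seen only among differences that had not passed the test. On the deposited scale, KO against HA turned to -0.164 (UBA7) without LPS and to -0.201 (UBA7) and -0.122 (USP18) with it. With libraries left out, the log2 difference of KO against HA ran from -0.048 to 0.218 (UBA7) and -0.033 to 0.917 (USP18) without LPS and from -0.098 to 0.262 (UBA7) and -0.215 to 0.607 (USP18) with it. HA against SA with LPS ran from -0.346 to 0.357 (UBE2L6) and -0.288 to 0.76 (HERC6), and SA against WT from -0.12 to 0.159 (UBE2L6) without LPS and -0.154 to 0.156 (UBA7) with it. The LPS response ran from -0.26 to 0.016 (UBA7) and -0.076 to 0.194 (UBE2L6) in KO and from -0.295 to 0.06 (UBA7) in HA. Its difference from WT ran from -0.108 to 0.459 (ISG15), -0.081 to 0.789 (HERC6) and -0.401 to 0.536 (USP18) in SA, with the lowest of each at SA LPS replicate 1 left out, from -0.146 to 0.331 (UBE2L6) in HA and from -0.032 to 0.323 (HERC5) in KO.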
